A study of Mus musculus with 8 samples.

Results

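Immunoglobulin constant genes and their partner proteins were described in T cells through 7 of the 24303 genes of the deposited expression table. The 7 genes were Igha, Ighm and Ighg2b (heavy chain constant genes), Igkc (the kappa light chain constant gene), Jchain (the joining chain of polymeric antibody), Sdc1 (the surface proteoglycan CD138) and Cd79b (a signalling chain of the B cell receptor). They were chosen by their values in these same libraries, in which Igha and Jchain were high in cells given TGF-β1 and Igkc was not. The levels of the 7 in those cells are therefore given as a description, with no test. No filter on low values was applied, so all 7 were measured in all 8 libraries.

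The study asked how prolonged antigen and TGF-β1 shape CD8 T cells in culture. The cells were P14 cells, CD8 T cells with a transgenic receptor for the GP33 peptide of LCMV, taken from the spleens of C57BL/6 mice and activated on anti-CD3 and anti-CD28 for 2 days, and every culture received IL-2 and IL-15. Viable CD8+ cells were sorted and polyA RNA was sequenced, with 2 libraries for each of 4 conditions. Effector cells were harvested on day 7, and in its cytometry the paper marks day 7 effector cells as 7d-stim. After day 2, Acute-2d cells were kept without peptide, Acute-7d cells were given GP33 until day 7, and T_Dysf cells were given GP33 until day 19 with recombinant human TGF-β1 from day 7, and these 3 conditions were collected on day 19. No condition had GP33 until day 19 without TGF-β1 or TGF-β1 without GP33, so the effects of chronic antigen and of TGF-β1 cannot be told apart.

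In B cells, TGF-β1 is the classical signal for switching to IgA. It first induces germline transcripts of the alpha constant gene, through Smad3 and Runx3 bound at the promoter upstream of its switch region, and these transcripts carry no variable region and encode no antibody. The joining chain, made by plasma cells and by some other lymphocytes, links IgA into dimers and IgM into pentamers. Germline transcripts of the mu constant gene are long known in T cells, which do not rearrange their heavy chain variable genes productively.

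Values are normalized counts, for which the authors scaled the reads of each library by a median of ratios. One normalized count stood for close to 1 read: the worth of 1 read was 0.863 to 1.12 normalized counts, inferred from whichever low value recurred most in a library. By that measure the libraries held 19382147 to 24856195 reads on genes. A count of 0 allows up to 3 reads, which is 2.59 to 3.35 normalized counts, and these floors and the intervals below cover counting error only. The labels call the libraries of a condition biological replicates without naming the culture or animal of each, so the tests measure the spread between these samples.

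Several libraries stood apart. In T_Dysf replicate 1, 138 genes were under 3 reads while every other library held at least 50 reads of them, and 51.0% of its low values were whole reads within a tolerance of 0.01, against 72.2% to 74.9% in the other libraries. The Y-linked gene Ddx3y was at 1334 and 1491 in Effector, 2161 and 0 in Acute-7d, 0 and 0 in Acute-2d, and 2.59 and 0 in T_Dysf. The X inactivation transcript Xist was high where Ddx3y was low, with 54.5 and 30427 in the Acute-7d pair. The 3 libraries with Ddx3y were also the 3 whose library names carried the prefix RESUB, so sex and prefix cannot be told apart. Both Effector libraries carried them, as did 1 of the Acute-7d pair. Differences of Igha, Jchain and Sdc1 are given below also without T_Dysf replicate 1.

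The cells carried T cell markers. Of 15 T cell genes, all were in the table, and their summed level was 139040 and 134870 in Effector, 142100 and 148950 in Acute-2d, 146200 and 143580 in Acute-7d, and 251890 and 242420 in T_Dysf. Thy1 was the most abundant of them, with a mean of 36402. In T_Dysf against Acute-7d, where 5.57% of all genes were called, limma called Cd3e, Cd3g and Thy1 higher (log2 differences 1.08, 1.27 and 1.23) and Cd2 and Cd5 lower (-1.31 and -1.40), so 5 of 15, a count that ran from 1 without Acute-7d replicate 1 to 6 without Effector replicate 1. The same 5 were called against Acute-2d (7.35% of all genes), a count that fell to 1 without T_Dysf replicate 1. Against Effector (9.22% of all genes) the 5 were Cd3e, Cd3g, Cd8a and Thy1, higher, and Cd5, lower, and 0 were called without T_Dysf replicate 1, with Cd8a kept in 5 of 15 alternatives. Cd4 did not exceed 13.0 in any library.

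The measured constant genes of the heavy chain lie on chromosome 12 in the order Ighm, Ighd, Ighg3, Ighg2b, Ighg2c and Igha, and all are read from the minus strand. In the RefSeq annotation of GRCm38, Igha occupies chr12:113256204-113260236 and Ighm chr12:113418826-113422730. Jchain lies elsewhere, at chr5:88519809-88527897, and Igkc on chromosome 6. Because antibody constant genes are related in sequence, the first 90 bases of their first constant exon are shown, to let a reader see how far apart the genes are that a read must be assigned to. They were taken from the GENCODE vM21 transcripts and run 5′ to 3′, and capitals mark the longest run that each shares with another of the 4.
Igha: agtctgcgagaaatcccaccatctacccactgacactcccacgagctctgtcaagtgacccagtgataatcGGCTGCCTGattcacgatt
Ighm: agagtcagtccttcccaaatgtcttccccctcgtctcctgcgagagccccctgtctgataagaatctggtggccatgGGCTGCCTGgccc
Ighg2b: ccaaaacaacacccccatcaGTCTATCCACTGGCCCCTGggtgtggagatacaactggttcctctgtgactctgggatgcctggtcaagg
Ighg2c: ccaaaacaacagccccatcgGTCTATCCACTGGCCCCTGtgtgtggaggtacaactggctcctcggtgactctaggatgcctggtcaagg

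Igha and Ighm shared a longest run of 9 bases, and 26 of the 90 positions were identical when the sequences were laid side by side without gaps. Ighg2b and Ighg2c shared a run of 19 bases and 83 of the 90 positions. Over whole transcripts, 0 of the 2491 stretches of 50 bases in Igha occurred in a transcript of any other gene, and Jchain, Ighm, Igkc and Cd79b had 0 as well. Ighg2b had 109 of 2517 such stretches (4.33%) in other genes, 70 of them in Ighg2c, and Sdc1 had 30 of 3108 (0.965%). Reads of Igha and Ighm were therefore distinguishable by sequence, whereas some reads of Ighg2b could not be assigned to a single gamma gene.

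Igha stood at 7.31 and 9.03 normalized counts in Effector, 5.27 and 1.08 in Acute-2d, 3.35 and 8.08 in Acute-7d, and 1086 and 1154 in T_Dysf. Both T_Dysf libraries were far above the other 6, which held between 1 and 9 reads each. Pooled over both libraries, T_Dysf held 2555 reads of Igha, while Acute-7d held 11, Acute-2d 6 and Effector 17. The mean in T_Dysf, 1120 ± 47.9 (SD, n = 2), was 196 times that in Acute-7d (95% interval from exact binomial counting error, 107 to 385). Against Acute-2d the ratio of means was 353 (161 to 954), and against Effector it was 137 (85.8 to 237).

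On the log2 scale with a pseudocount of 1, Igha was higher in T_Dysf by 7.48 against Acute-7d, by 8.28 against Acute-2d and by 6.94 against Effector. These 3 comparisons share the T_Dysf libraries. The difference from Acute-7d was 7.52 without T_Dysf replicate 1, and it was 6.95 without Acute-7d replicate 1 and 8.01 without Acute-7d replicate 2. From Acute-2d it was 7.48 without Acute-2d replicate 2 and 9.07 without Acute-2d replicate 1. From Effector it was 5.88 with a term for the RESUB prefix, which rests on the Acute-7d pair alone, the only pair that differed in prefix. Among the other conditions the order of Igha was Effector, Acute-7d and Acute-2d, but Effector overlapped with Acute-7d, and Acute-7d with Acute-2d. In bulk RNA a larger number of cells with a transcript and more of it per cell cannot be told apart.

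Jchain, whose product joins the tails of alpha and mu heavy chains, had 5.48 and 3.01 normalized counts in Effector, 7.37 and 5.40 in Acute-2d, 6.69 and 2.02 in Acute-7d, and 236 and 275 in T_Dysf. It followed the same division as Igha, with both T_Dysf libraries high and the other 6 between 2 and 7 reads. The mean in T_Dysf was 256 ± 27.3 (SD, n = 2), and its ratio was 58.7 to Acute-7d (30.4 to 140), 40.0 to Acute-2d (22.7 to 77.7) and 60.2 to Effector (31.0 to 130). The log2 differences of Jchain were 5.73, 5.13 and 5.65 in the same order. Without T_Dysf replicate 1 the difference from Acute-7d was 5.84, and it was 6.41 without Acute-7d replicate 1 and 5.06 without Acute-7d replicate 2. The levels of Jchain in Acute-2d and Acute-7d overlapped, as did those in Acute-7d and Effector.

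**Figure D1:**
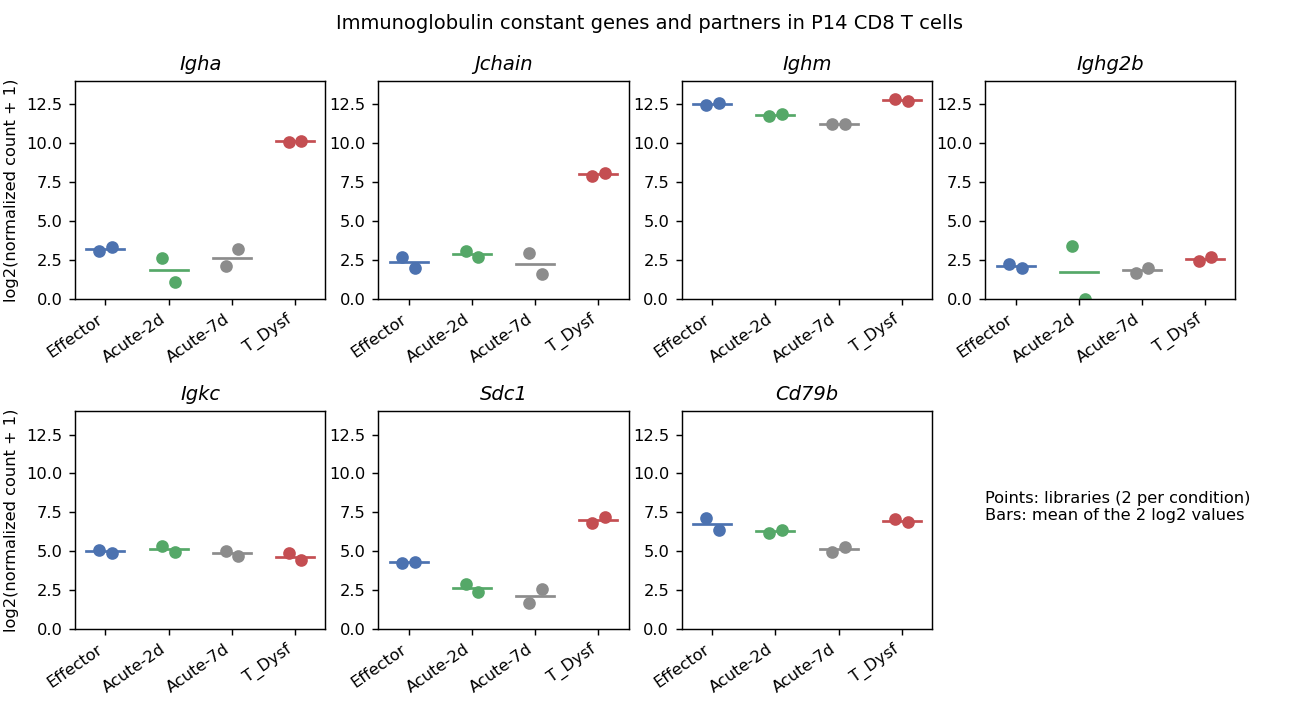
Each panel plots 1 member, with log2(normalized count + 1) on the y axis and the 4 conditions on the x axis; points are libraries and bars are the mean of both log2 values. Igha, Jchain and Sdc1 are far higher in both T_Dysf libraries than elsewhere, Ighm is high in all 8, and Igkc lies between 20.5 and 40.0 normalized counts throughout.

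Igkc, the constant gene of the kappa light chain that pairs with most mouse heavy chains, was at 32.9 and 29.1 in Effector, 40.0 and 30.2 in Acute-2d, 31.2 and 25.2 in Acute-7d, and 28.5 and 20.5 in T_Dysf. Its T_Dysf libraries were among the lower ones and overlapped with Acute-7d. The log2 difference of Igkc in T_Dysf was -0.21 against Acute-7d, -0.51 against Acute-2d and -0.34 against Effector. The ratio of means to Acute-7d was 0.867, with a counting interval of 0.589 to 1.30. The difference from Acute-7d was -0.44 without T_Dysf replicate 1 and 0.02 without T_Dysf replicate 2. A high Igha without a high Igkc was the ground for choosing these genes, so it is no separate finding.

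The lambda light chain genes did not take the place of kappa. Iglc1, Iglc2 and Iglc3 were the 3 lambda constant genes in the table, and none exceeded 3.24 normalized counts in any library. In T_Dysf comparisons limma called 0 of the 3, with 0 at an unadjusted p under 0.05, where 5.57% to 9.22% of all genes were called. Iglc4 was not in the table.

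Ighm, the constant gene of IgM, was the most abundant member in every condition, with 5635 and 6066 in Effector, 3466 and 3711 in Acute-2d, 2364 and 2392 in Acute-7d, and 7385 and 6766 in T_Dysf. The order was T_Dysf, Effector, Acute-2d and Acute-7d, and no neighbours in that order overlapped. The mean in T_Dysf, 7075 ± 438 (SD, n = 2), was 2.98 times that in Acute-7d (2.88 to 3.08), 1.97 times that in Acute-2d (1.92 to 2.03) and 1.21 times that in Effector (1.18 to 1.24). Ighm was thus already transcribed in cells that had not received TGF-β1.

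Ighg2b, a gamma constant gene that lies between Ighm and Igha, stayed near the floor, with 3.66 and 3.01 in Effector, 9.48 and 0 in Acute-2d, 2.23 and 3.03 in Acute-7d, and 4.32 and 5.34 in T_Dysf. Its ratio of T_Dysf to Acute-7d was 1.84, with a counting interval of 0.582 to 6.68 from 11 and 5 reads. Against Acute-2d its log2 difference ran from -0.85 without Acute-2d replicate 2 to 2.54 without Acute-2d replicate 1. A difference of Ighg2b between conditions was not detectable at this depth.

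Sdc1, a heparan sulfate proteoglycan used to mark plasma cells, had 18.3 and 19.1 normalized counts in Effector, 6.32 and 4.32 in Acute-2d, 2.23 and 5.05 in Acute-7d, and 113 and 148 in T_Dysf. Both T_Dysf libraries were above all others, and both Effector libraries were above both Acute conditions, which overlapped. The mean of Sdc1 in T_Dysf was 130 ± 24.5 (SD, n = 2), 35.8 times that in Acute-7d (16.8 to 88.0), 24.5 times that in Acute-2d (13.1 to 51.4) and 6.98 times that in Effector. Its log2 differences were 4.88, 4.38 and 2.73, and with a pseudocount of 10 they were 3.36, 3.19 and 2.28. Without Acute-7d replicate 1 the difference from Acute-7d was 4.43, and without Acute-7d replicate 2 it was 5.33. Without T_Dysf replicate 1 the difference of Sdc1 from Acute-7d was 5.07, and with a term for the RESUB prefix the difference from Effector was 1.82.

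Cd79b, which with Cd79a carries the signal of the B cell receptor, was at 138 and 83.3 in Effector, 72.7 and 83.1 in Acute-2d, 30.1 and 38.4 in Acute-7d, and 136 and 115 in T_Dysf. Its highest library was an Effector library, and T_Dysf and Effector overlapped. The mean of Cd79b in T_Dysf was 3.65 times that in Acute-7d (2.77 to 4.84) and 1.13 times that in Effector (0.939 to 1.34). Against Effector the log2 difference was 0.22, and it was -0.14 without Effector replicate 2. Its partner Cd79a was at 18.1 and 21.4 in T_Dysf and at 10.1 to 17.3 elsewhere.

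Levels of different genes were compared per kilobase of exon, from GENCODE vM21. In T_Dysf, Ighm had 3752 normalized counts per kilobase, Igha 420, Jchain 184, Cd79b 87.4, Igkc 46.0, Sdc1 38.2 and Ighg2b 1.80. Per kilobase, Igha reached 11.2% of the level of Ighm and was 9.13 times that of Igkc. For scale, Ighm per kilobase was 65.7% of Cd3d, a chain of the T cell receptor complex, in T_Dysf and 28.8% in Acute-7d. In Acute-7d, Igha was at 2.14 normalized counts per kilobase, below Igkc at 53.1 and Ighm at 1261. Igha remained below Ighm in both conditions.

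The table held 15 immunoglobulin genes in all, 4 of them members. Of these 15, 8 reached at least 10 normalized counts in a library and 7 did not. Among the non-members that did, Ighd, the delta constant gene read from the same primary transcript as Ighm, was at 36.6 and 43.1 in Effector, 20.0 and 10.8 in Acute-2d, 17.9 and 14.1 in Acute-7d, and 114 and 99.6 in T_Dysf. Limma's moderated t test, with Benjamini-Hochberg adjustment over all genes, called Ighd higher in T_Dysf than in Acute-7d (log2 difference 2.67, adjusted p = 0.0215) and than in Acute-2d (2.77, adjusted p = 0.0155). A gene was called when its fold change was at least 2 and its adjusted p under 0.05. The call against Acute-7d was lost in 6 of 14 alternatives, with either library of T_Dysf or of Acute-7d left out among them. The call against Acute-2d was kept in 11 of 14, and was lost without either T_Dysf library and in a fit of both groups alone. Against Effector, Ighd was not called (1.40, adjusted p = 0.0713).

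The other heavy chain genes stayed low. Ighg2c did not exceed 14.7 and Ighg3 did not exceed 10.5, and neither was called in a T_Dysf comparison. Ighg1, Ighg2a and Ighe were not in the table. The variable genes Ighv1-69 and Igkv14-111 reached 11.2 and 18.1 in T_Dysf replicate 1 but 0.890 and 1.78 in T_Dysf replicate 2, so 1 library carried them. In T_Dysf, levels per kilobase were 3752 for Ighm, 56.2 for Ighd and 420 for Igha. The measured gamma genes between them were at 9.22 or below. In the other conditions Igha was at 3.06 per kilobase or below, as low as the gamma genes.

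**Figure D2:**
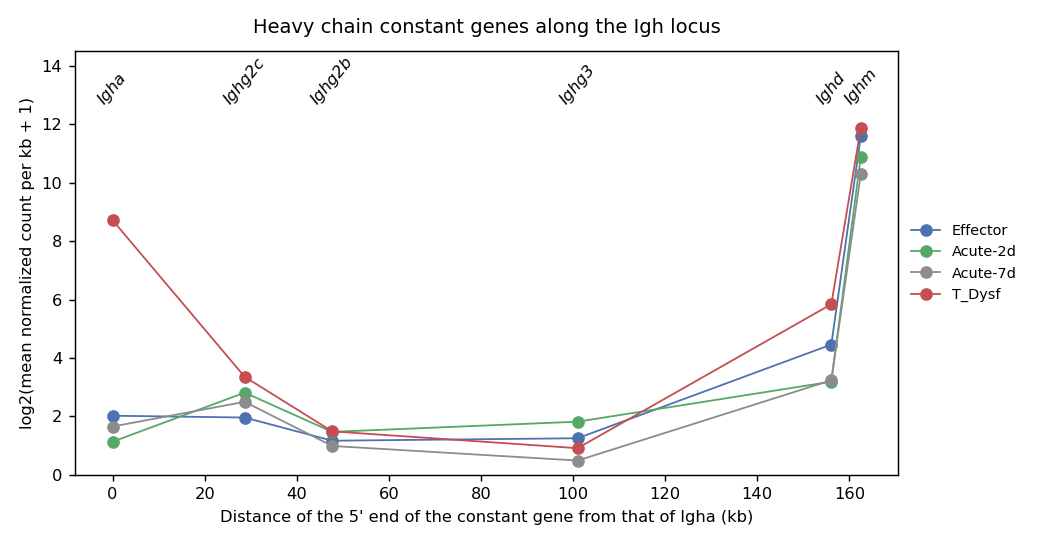
The mean level of each heavy chain constant gene, as log2(mean normalized count per kilobase + 1) on the y axis, is plotted against the distance of its 5′ end from that of Igha in kilobases on the x axis, with a line for each condition. Igha stands at 420 per kilobase in T_Dysf and at 3.06 or below elsewhere, while Ighg2c, Ighg2b and Ighg3 stay at 9.22 or below in all 4.

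Genes outside the immunoglobulin locus were compared with the chosen genes by position. On the 3′ side of Igha the nearest genes in the table were Tmem121 at 66.7 kb, Tedc1 at 90.7 kb and Crip1 at 102 kb. None of the 3 was called higher in T_Dysf in any comparison. Crip1 was called lower against Effector (log2 difference -1.08, adjusted p = 0.00761 by limma), where 9.22% of all genes were called. Tmem121 was at 0.863 and 0 in T_Dysf. On the 5′ side the next genes were Ighg2c at 27.2 kb, Ighg2b at 44.1 kb and Ighg3 at 97.2 kb, whose levels are given above. The high level of Igha was not shared by its measured neighbours on either side.

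Of the 6 neighbours of Jchain, 2 were called higher in T_Dysf than in both Acute conditions. In either direction, 5.57% of all genes were called against Acute-7d and 7.35% against Acute-2d. Enam, an enamel matrix gene 13.8 kb away, had 29.3 and 32.9 in T_Dysf and 7.31 and 31.1 in Effector, and was at 0 in all 4 Acute libraries. Enam was at least 9.76-fold higher in T_Dysf than in Acute-7d and at least 9.73-fold higher than in Acute-2d, against a floor of 3 reads per library, and limma called both (adjusted p = 0.0180 and 0.0142). Those calls were lost when a library of either compared group was left out. Unlike Jchain, Enam was also called higher in Effector than in Acute-2d and Acute-7d (adjusted p = 0.0234 and 0.0254), calls that 5 of 14 alternatives kept, and with the Acute libraries at 0 its log2 difference ran from 1.42 to 7.25 over them. Rufy3, 36.6 kb away on the other side, had 396 and 350 in Effector, 254 and 262 in Acute-2d, 280 and 261 in Acute-7d, and 708 and 625 in T_Dysf. Rufy3 was called higher in T_Dysf than in Acute-7d (log2 difference 1.30, adjusted p = 0.00552) and than in Acute-2d (1.36, adjusted p = 0.00400), in 15 of 15 alternatives each. Utp3, between Jchain and Rufy3, was not called in a T_Dysf comparison, nor were Grsf1, Ambn and Gm7337.

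Because Jchain and Sdc1 were high in the same libraries, the 250 bases before their starts are shown from RefSeq for GRCm38.p6, which held an entry for 2 of the 7 members. They were searched on both strands for CAGAC, the box bound by Smad proteins, ACCACA, bound by Runx proteins, and TGACG, part of the element bound by Creb proteins, and matches are in capitals. Jchain, minus strand, chr5:88527898-88528147, had 1 TGACG 200 bases before its start and neither of the others.
Jchain: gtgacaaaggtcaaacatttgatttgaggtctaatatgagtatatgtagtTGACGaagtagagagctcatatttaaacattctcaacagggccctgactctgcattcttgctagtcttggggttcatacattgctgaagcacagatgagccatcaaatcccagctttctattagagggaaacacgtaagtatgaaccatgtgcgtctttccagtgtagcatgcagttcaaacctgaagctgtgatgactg
Sdc1: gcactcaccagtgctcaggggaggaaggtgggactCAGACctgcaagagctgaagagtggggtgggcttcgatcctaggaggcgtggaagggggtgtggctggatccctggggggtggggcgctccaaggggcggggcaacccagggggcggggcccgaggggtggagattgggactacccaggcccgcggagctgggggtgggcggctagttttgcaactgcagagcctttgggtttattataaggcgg

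Sdc1, plus strand, chr12:8771146-8771395, had 1 CAGAC 215 bases before its start and neither of the others. Of 32851 promoters of the same length, 13861 (42.2%) held CAGAC, 4614 held ACCACA and 5836 (17.8%) held TGACG, so each match in Jchain and Sdc1 was of a common kind. The promoter of the germline alpha transcript, which lies upstream of the constant exons of Igha, was not in the promoter table. Counts for Igha do not show whether its transcripts begin at that promoter or carry a variable region, nor whether they encode a secreted or a membrane form.

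Tests of the members are given for the 3 comparisons without T_Dysf, which were not the contrast that chose them, although low values of Igha and Jchain outside T_Dysf were part of the choice. Acute-7d against Acute-2d asks what 5 further days of antigen leave behind after rest, and 0 of 7 members were called, where limma called 41 of all genes (0.169%) and 2 of the 7 and 1777 of all had an unadjusted p under 0.05. Ighm had the smallest p of the 7, with a log2 difference of -0.59 and an adjusted p of 0.165. Cd79b differed by -1.17 (adjusted p = 0.483), and its libraries did not overlap. Igha differed by 0.80 (adjusted p = 0.897) and Jchain by -0.60 (adjusted p = 0.920), both within overlapping libraries. With so few genes called at all, the count of 0 says little about the members.

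Effector against Acute-2d compared cells of day 7 with rested cells of day 19, and 0 of 7 members were called, where 8.78% of all genes were called and 2 of the 7 and 7590 of all had an unadjusted p under 0.05. Ighm was higher in Effector by a log2 difference of 0.70 (adjusted p = 0.0114), which is under the fold change of 2 that a call needs. Sdc1 differed by 1.66 (adjusted p = 0.0710) and Igha by 1.34 (adjusted p = 0.265). Both Effector libraries were above both Acute-2d libraries for each of these 3 genes, but the share of all genes so separated was not counted. With 2 libraries against 2, the smallest p of an exact two-sided permutation test is 0.333. For Igha the ratio of means was 2.575 (counting interval 0.956 to 7.87), from 17 and 6 reads.

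Effector against Acute-7d called 3 of 7 members, where 8.06% of all genes were called. Ighm rose in Effector by a log2 difference of 1.30 (SE 0.07, adjusted p = 0.00480), and the call held in 14 of 15 alternatives, the exception being a fit of both groups alone. Sdc1 was called higher by 2.15 (SE 0.44, adjusted p = 0.0404), a call that 3 of 14 alternatives kept and that was lost with any 1 library left out. Cd79b was called higher by 1.63 (SE 0.30, adjusted p = 0.0322), in 5 of 15 alternatives. Igha (0.54, adjusted p = 0.698) and Jchain (0.08) were not called.

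Ighm, Cd79b and Sdc1 stood higher in Effector than in Acute-7d, and Effector cells had not received TGF-β1. Sdc1 was also 6.98 times as high in T_Dysf as in Effector. Igha and Jchain held at most 9 reads in any library outside T_Dysf. Whether the members differ from each other in pattern was not tested.

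Markers of B cells were counted beside these values. All 25 genes of the B cell list were in the table, and 24 were left without Cd79b. Against Acute-7d, where 5.57% of all genes were called, limma called 1 of the 24 higher in T_Dysf and 2 lower, with a median log2 difference of 0.16 against 0 over all genes. Ciita, the master regulator of MHC class II, was the one called higher (2.11, adjusted p = 0.0270), from 13.4 and 22.2 to 80.3 and 75.6. Btla, an inhibitory receptor also made by T cells, was called lower (-2.01, adjusted p = 0.0414), and so was H2-Ab1, an MHC class II chain (-1.77, adjusted p = 0.0470). Each of these 3 calls was lost in more than 7 of the alternatives, and all 3 without Acute-7d replicate 1.

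Against Acute-2d, where 7.35% of all genes were called, 0 of the 24 were called higher by limma (5 of the 24 had an unadjusted p under 0.05) and H2-Ab1 was called lower (log2 difference -3.56, adjusted p = 0.00752, in 15 of 15 alternatives). That count of 1 was 3 without Acute-2d replicate 2. Against Effector, where 9.22% were called, Ciita was called higher (1.68, adjusted p = 0.0329) and Btla and H2-Ab1 lower (-3.89 and -2.12, adjusted p = 0.00759 and 0.0225), with Ciita kept in 5 of 14 and H2-Ab1 in 9 of 15 alternatives. That count of 3 was 1 without Acute-2d replicate 1 and 5 without Effector replicate 1. The summed level of the 24 genes was 3449 and 2917 in Effector, 4978 and 4090 in Acute-2d, 2442 and 2763 in Acute-7d, and 2654 and 2557 in T_Dysf. Cd72 was the most abundant, with a mean of 1468. The sum was not higher in T_Dysf than in every other condition, but Cd72 alone was at 1960 and 1898 in T_Dysf. The sum therefore says little on the less abundant genes of the list. Among those, Ciita was highest in T_Dysf and H2-Ab1 lowest.

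Of the genes by which B cells are recognized, Ms4a1, Pax5, Cd79a and Ebf1 were at 24.4 or below in all 8 libraries. Ms4a1, which encodes CD20, was at 4.57 and 13.0 in Effector, 5.27 and 1.08 in Acute-2d, 4.46 and 1.01 in Acute-7d, and 2.59 and 1.78 in T_Dysf. Pax5, the factor that maintains B cell identity, lay between 5.40 and 17.4, with 8.63 and 13.3 in T_Dysf. Ebf1, an early B cell transcription factor, was at 24.4 and 17.8 in T_Dysf and at 2.16 to 12.8 elsewhere (log2 difference from Acute-7d 1.79, adjusted p = 0.114 by limma). Ms4a1, Pax5, Cd79a and Ebf1 were not called in any T_Dysf comparison. Both Ebf1 and Cd79a were highest in the T_Dysf pair, with ratios to Acute-7d of 3.97 (1.98 to 8.79) and 1.76 (1.03 to 3.13), at 48 and 45 reads. The same libraries held 2555 reads of Igha, but reads of different genes do not give a number of cells. The part of B cells in the result was not tested.

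Plasma cell markers were counted in the same way. Of 19 genes, 18 were in the table and 16 were left without Jchain and Sdc1. In T_Dysf against Acute-7d, where 5.57% of all genes were called, limma called 1 of the 16 higher. It was Tnfrsf13b, the receptor TACI (log2 difference 1.40, adjusted p = 0.0290). Against Acute-2d (7.35% of all genes) limma called Creld2, a protein of the endoplasmic reticulum, higher (1.11, adjusted p = 0.0423). Against Effector (9.22% of all genes) it called Tent5c, a poly(A) polymerase, higher (2.07, adjusted p = 0.00803) and Irf4 lower (-1.30, adjusted p = 0.0432). The calls of Tnfrsf13b, Creld2 and Irf4 were each kept in 7 or fewer of 15 alternatives, and that of Tent5c in 12, and none was kept without T_Dysf replicate 1. The median log2 difference of the 16 from Acute-7d was 0.11.

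The summed level of the 16 plasma cell genes was 19132 and 21651 in Effector, 20595 and 18642 in Acute-2d, 21211 and 18744 in Acute-7d, and 20019 and 19833 in T_Dysf. Edem1, which serves protein quality control in any cell, was the most abundant, with a mean of 6255. Of the defining plasma cell markers, Tnfrsf17 was not in the table, and Mzb1, a chaperone of IgM assembly, did not exceed 4.01 and was at 0.863 and 0 in T_Dysf. Pou2af1, a coactivator of immunoglobulin transcription, was at 6.90 and 3.56 in T_Dysf, its lowest levels. Derl3 lay between 5.48 and 27.0. Of Mzb1, Derl3 and Pou2af1, limma called 0 in T_Dysf comparisons, with 0 at an unadjusted p under 0.05, but 1 against Effector without Effector replicate 1. Summed over these 3 genes, the level was 14.6 and 84.3 in Effector, 30.8 and 55.1 in Acute-2d, 23.4 and 32.3 in Acute-7d, and 23.3 and 18.7 in T_Dysf. Xbp1, the transcription factor of the secretory programme, was at 2072 and 2068 in T_Dysf and at 1406 to 2181 elsewhere.

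Other cell types that a CD8 sort could carry were listed as well. For these lists, the NK and dendritic lists below included, the shares of all genes called were 5.57% against Acute-7d, 7.35% against Acute-2d and 9.22% against Effector. Limma called 0 of the 6 measured myeloid genes and 0 of the 5 measured erythroid genes in T_Dysf comparisons, and 0 of either had an unadjusted p under 0.05. Without Effector replicate 1, 1 myeloid gene was called against each Acute condition, and without Effector replicate 2, 1 against Effector. The summed level of the myeloid genes was 607 and 299 in Effector, 700 and 498 in Acute-2d, 387 and 579 in Acute-7d, and 459 and 405 in T_Dysf, with Lyz2 the most abundant. The erythroid genes summed to 46.1 to 111, with Hba-a2 the most abundant. Of 4 CD4 T cell genes, limma called 0 against Acute-7d and Acute-2d, with 1 at an unadjusted p under 0.05 in each, and Cd40lg, at 0 in both T_Dysf libraries, was called lower against Effector, but not without T_Dysf replicate 1. The count was 1 against Acute-7d without Acute-2d replicate 1, and 3 against Effector without Effector replicate 1. Their sums ran from 1058 to 1639, with Zbtb7b the most abundant.

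Of 4 NK cell genes, Ncr1 was called lower in T_Dysf than in Acute-7d (log2 difference -4.18, adjusted p = 0.0343), a call kept in 5 of 14 alternatives and lost without either T_Dysf library, and the sums were 249 and 551 in T_Dysf and 256 to 1499 elsewhere, with Klrb1c the most abundant. Of 7 measured dendritic cell genes, Batf3 was called higher against Acute-7d (4.18, adjusted p = 0.0200) and Itgax against Acute-2d and Effector (3.26 and 2.88, adjusted p = 0.0169 and 0.0200), and these 3 calls were lost without T_Dysf replicate 1. Without Effector replicate 1 the counts were 2 against Acute-7d, 2 against Acute-2d and 3 against Effector. The dendritic sums were 3801 and 3613 in T_Dysf and 613 to 1469 elsewhere. Itgax made up most of them, at 3306 and 3212 in T_Dysf, and is also made by activated CD8 T cells. Xcr1, a marker of conventional dendritic cells, was at 391 and 300 in T_Dysf and at 101 to 546 elsewhere, Zbtb46 was at 32.8 and 18.7 in T_Dysf, and Siglech, Clec9a and Cd209a did not exceed 3.03. The part of these cell types in the levels of Igha and Jchain was not tested.

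Smad3 and Runx3, with their partners, are the factors known to act at the germline alpha promoter of B cells, and a list of 13 such genes was in the table in full. Against Acute-7d, where 5.57% of all genes were called, limma called 0 of the 13 higher in T_Dysf and 2 lower. Of the 13, 5 had an unadjusted p under 0.05, and the median log2 difference was 0.35. Their summed level was 49057 and 50656 in T_Dysf and 38344 to 45371 elsewhere, with Ets1 the most abundant. Smad3 was at 679 and 1181 in Effector, 1844 and 1856 in Acute-2d, 1723 and 1835 in Acute-7d, and 68.2 and 96.1 in T_Dysf. Both T_Dysf libraries were far below the other 6, and Smad3 was called lower against Acute-7d (-4.44, adjusted p = 0.00461), Acute-2d (-4.50, adjusted p = 0.00348) and Effector (-3.45, adjusted p = 0.00624). Its mean in Acute-7d was 21.7 times that in T_Dysf (18.8 to 25.3). The calls against both Acute conditions held in 15 of 15 alternatives.

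Runx1 was called lower in T_Dysf against Acute-7d (log2 difference -1.66, adjusted p = 0.000449), from 967 and 948 to 306 and 297. Runx3 was at 8181 and 8354 in T_Dysf and at 3685 to 5699 elsewhere, a log2 difference of 0.98 from Acute-7d (adjusted p = 0.0474) that fell short of a fold change of 2. Against Acute-2d (7.35% of all genes), 2 of the 13 were called higher, Runx2 (1.30, adjusted p = 0.0123) and the receptor Tgfbr1 (1.13, adjusted p = 0.0446). Smad3 and Runx1 were called lower. Against Effector (9.22% of all genes), Runx2, Tgfbr1 and Tgfbr2 were called higher (1.46, 1.15 and 1.58, adjusted p = 0.00923, 0.0363 and 0.00150) and Smad3 lower. The Tgfbr1 calls held in 4 of 15 alternatives against Acute-2d and in 6 against Effector, and without T_Dysf replicate 1 those of Runx2 and Tgfbr1 were lost. The count of 4 against Acute-2d was also 2 without Acute-2d replicate 2.

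Igha was set beside 5 genes that the study had named on these samples, Itgae as induced by TGF-β1, and Smurf1, Ski, Skil and Pmepa1 as negative regulators of its signalling. Of the 5, 4 were called higher in T_Dysf in every comparison. The shares of all genes called were 5.57% against Acute-7d, 7.35% against Acute-2d and 9.22% against Effector. Itgae, the integrin chain CD103, was at 40456 and 37825 in T_Dysf and at 50.2 to 101 elsewhere (log2 difference from Acute-7d 9.05, adjusted p = 0.000385). Pmepa1, Skil and Ski differed from Acute-7d by 4.45, 1.66 and 1.08 (adjusted p = 0.0159, 0.0453 and 0.0108), and the call of Skil was lost in 9 of 15 alternatives. Smurf1 was not called (-0.21, adjusted p = 0.379). The count of 4 was 1 against Acute-7d without Acute-7d replicate 2, 2 against Acute-2d without Acute-2d replicate 2 and 2 against Effector without T_Dysf replicate 1. The 5 genes summed to 53928 and 51504 in T_Dysf and to 3207 to 5637 elsewhere, with Itgae the most abundant. Igha was thus high in the libraries in which Itgae was high and Smad3 transcript lowest, and what links these levels was not tested.

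**Figure D3:**
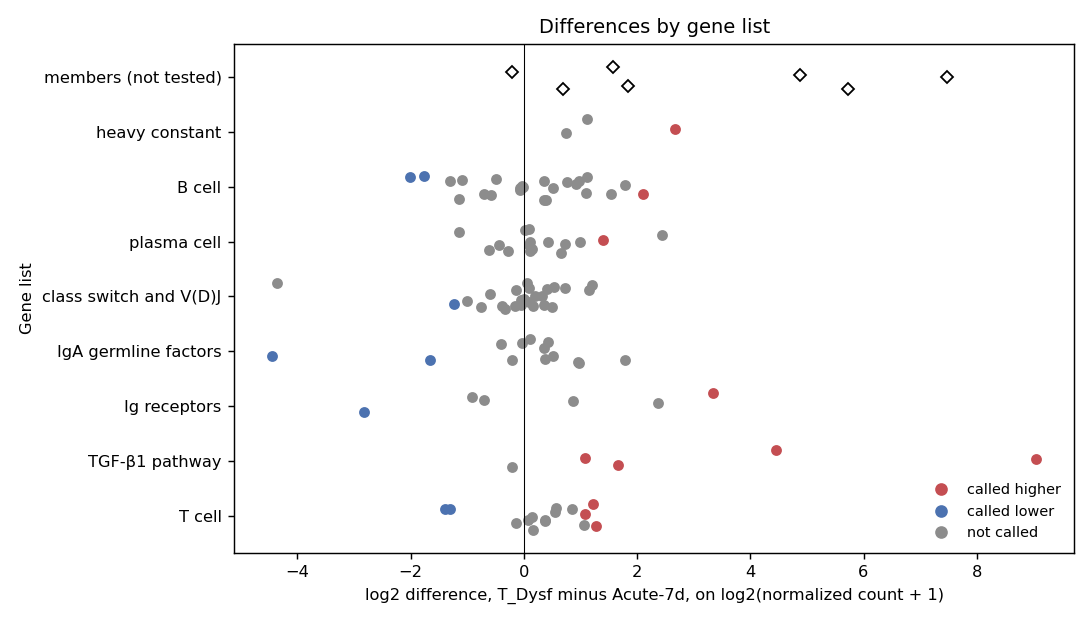
Each point is a gene, placed by its log2 difference of T_Dysf from Acute-7d (x axis) in the row of its list (y axis), with genes called higher in red, called lower in blue and not called in grey, and members as open diamonds. Igha, Jchain and Sdc1 lie beyond all genes of the B cell and plasma cell lists, whose medians are 0.16 and 0.11.

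The machinery that recombines immunoglobulin genes was listed too. The table held 26 listed genes of class switching and V(D)J joining. Rag2 had no entry, and Rag1 was at 0 in all 8 libraries. Of all genes, 5.57% were called in T_Dysf against Acute-7d and 7.35% against Acute-2d. Limma called 0 of the 26 higher in T_Dysf than in Acute-7d (8 had an unadjusted p under 0.05) and 1 lower, Apex1, a base excision repair enzyme (log2 difference -1.24, adjusted p = 0.0287, kept in 7 of 15 alternatives). That count was 0 without Acute-2d replicate 1 and 3 without Effector replicate 1. Against Acute-2d, Apex1 (-1.15, adjusted p = 0.0281) and Dntt (-7.72, adjusted p = 0.0422) were called lower, a count that was 0 without Acute-2d replicate 1 and 3 without Effector replicate 1. Dntt, which adds bases at V(D)J joints, was at 349 and 348 in Acute-2d, 21.2 and 50.5 in Acute-7d, 0.914 and 39.1 in Effector, and 1.73 and 0 in T_Dysf, and its call held in 6 of 15 alternatives, with a log2 difference of -9.67 to -5.05, and that of Apex1 in 7.

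Against Effector, where 9.22% of all genes were called, 4 of the 26 were called lower in T_Dysf, namely Ung, Apex1, Exo1 and H2ax (log2 differences -2.83, -2.06, -1.94 and -1.26, adjusted p = 0.00785, 0.00759, 0.0340 and 0.0216). The count was 0 without T_Dysf replicate 1 and 5 without Effector replicate 1, and the call of Exo1 held in 5 and that of H2ax in 9 of 15 alternatives. Supt5 was the most abundant gene of the list, with a mean of 5792. The summed level of the 26 was 24518 and 31193 in Effector, 21870 and 20944 in Acute-2d, 21650 and 22345 in Acute-7d, and 21080 and 20458 in T_Dysf. No gene of the list was called higher where Igha was high.

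The signalling chains that act beside Cd79b were listed with the surrogate light chain, and 8 of 9 genes were in the table. In T_Dysf against Acute-7d, where 5.57% of all genes were called, limma called 0 of the 8, and 4 had an unadjusted p under 0.05. Against Acute-2d (7.35% of all genes) it called Cd81 lower (log2 difference -3.03, adjusted p = 0.0176). Against Effector (9.22% of all genes), Plcg2 was called higher (1.29, adjusted p = 0.00947) and Cd81 lower (-3.88, adjusted p = 0.00991). All 3 calls of Plcg2 and Cd81 were lost without T_Dysf replicate 1, and without Effector replicate 1 the counts were 2 against Acute-2d and 3 against Effector. Igll1, part of the surrogate light chain, was at 0 in all 8 libraries, and Btk and Blnk did not exceed 7.37. The summed level was 1361 and 1350 in T_Dysf and 688 to 980 elsewhere, with Plcg2 the most abundant.

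Receptors and carriers of antibody were the last list, with 6 of 9 genes in the table and without Pigr, the transporter of polymeric IgA. Limma called 2 of the 6 in each T_Dysf comparison. The shares of all genes called were 5.57% against Acute-7d, 7.35% against Acute-2d and 9.22% against Effector. Fcer1g, the signalling chain of Fc receptors, was at 156 and 122 in Effector, 55.8 and 57.2 in Acute-2d, 53.6 and 182 in Acute-7d, and 924 and 1111 in T_Dysf. It was called higher in T_Dysf against Acute-7d (log2 difference 3.34, adjusted p = 0.0352), Acute-2d (4.14, adjusted p = 0.0171) and Effector (2.86, adjusted p = 0.0367), of which the first and the last held in 7 of 15 alternatives each, the last with a log2 difference as low as 1.12. Fcgrt, the neonatal Fc receptor, was called lower in all 3 (-2.82, -2.68 and -1.32, adjusted p = 0.00485, 0.00419 and 0.0184), though the call against Effector was lost in 5 of 15 alternatives, without either T_Dysf library among them. Without Effector replicate 2, neither gene was called against Effector. Fcmr, the receptor for IgM, did not exceed 10.4. The summed level was 2028 and 2139 in T_Dysf and 1236 to 2044 elsewhere, with Trim21, a cytosolic antibody receptor, the most abundant.

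The genes whose patterns were most like Igha were sought among 12027 genes with a mean of at least 50, by the root-mean-square difference of centred log2 values over the 8 libraries. They were S1pr3 (0.595), Klra5 (0.782), Cpd (0.806), Spsb1 (0.846) and Vipr2 (0.863). S1pr3, a sphingosine-1-phosphate receptor, was at 766 and 929 in T_Dysf and at 0 to 6.69 elsewhere. Vipr2, a receptor for vasoactive intestinal peptide, lies on chromosome 12 as Igha does, and was at 2508 and 2813 in T_Dysf and at 44.2 or below elsewhere.

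The genes most like Jchain by the same measure were Src (0.348), Gpr45 (0.468), Irak3 (0.556), Gzma (0.600) and Cyp4f39 (0.651). Src, a tyrosine kinase, was at 662 and 738 in T_Dysf and at 8.08 to 18.3 elsewhere. Gzma, the granzyme A gene of cytotoxic cells, was at 380970 and 357780 in T_Dysf and at 4933 to 13312 elsewhere. Igha was not among the 5 genes most like Jchain, nor Jchain among those most like Igha. Since all were picked for their likeness, no test was made of them.

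**Figure D4:**
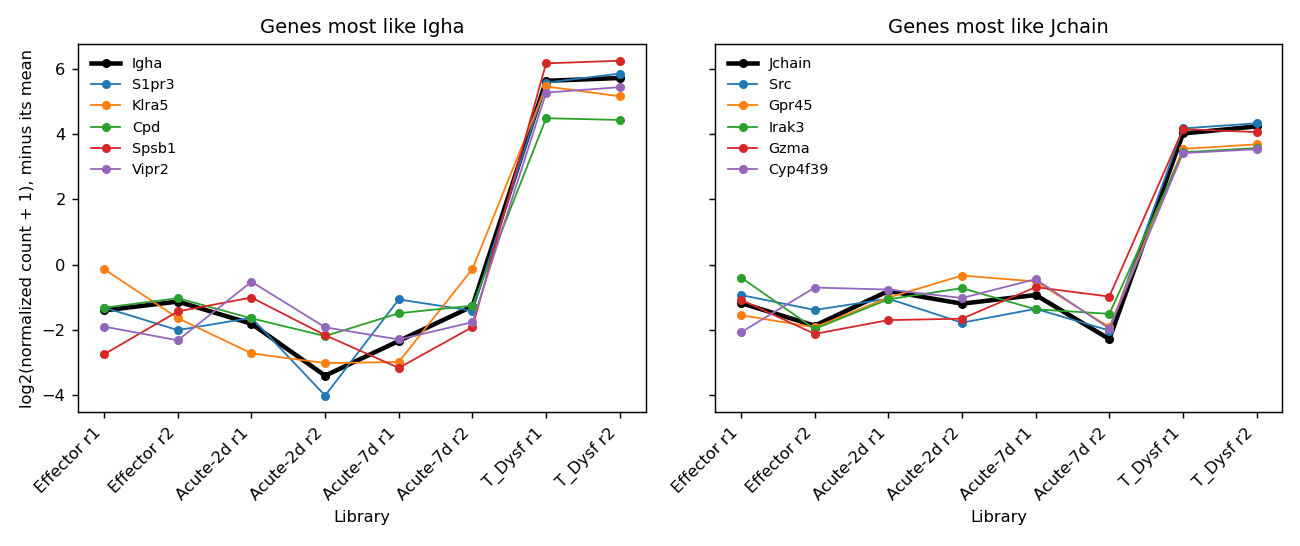
Lines show log2(normalized count + 1) minus its mean over the 8 libraries (y axis) in each library (x axis) for Igha with its 5 most similar genes and for Jchain with its 5. All lines are low in the 6 libraries outside T_Dysf and high in both T_Dysf libraries, with root-mean-square differences of 0.595 to 0.863 from Igha and 0.348 to 0.651 from Jchain.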

How the data were processed

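The deposited values are a signal and not whole reads. The authors aligned with STAR to mm10, quantified RefSeq transcripts in Partek Flow, and normalized by the median ratios of DESeq2. Differences were tested with limma (3.58.1, under R 4.3.3), fitting 4 group means to the log2 of the normalized count plus 1 in all 24303 genes and 8 libraries, with eBayes moderation (trend) and 4 residual degrees of freedom, two-sided. The members and the gene lists were chosen with earlier results of these data known. Named genes were all members, the immunoglobulin genes reaching 10 normalized counts, the defining markers, the called and the most abundant genes of each list, 5 most similar genes for Igha and Jchain, and 3 neighbours on each side. Genes given for scale or as T cell markers, and the signs of sex, were named beside this rule. Alternatives were a pseudocount of 0.1 or 10, a mean of at least 50, equal 75th percentiles, both groups alone, a replicate block, a term for the RESUB prefix, and each library left out. Only the Acute-7d pair differed in prefix, so the RESUB term rests on that pair. It is not independent of the fits with an Acute-7d library left out, and some of its log2 differences repeat theirs. The procedure was tested on simulated data. Python 3.11.15, pandas 2.3.3, scipy 1.17.1 and matplotlib 3.10.9 made the tables and figures.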

Additional observations from a re-analysis of the deposited data

How the results depend on the processing

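The log2 differences of Igha and Jchain between T_Dysf and each other condition stayed positive under every alternative run. With a pseudocount of 10 they were 6.18, 6.44 and 5.96 for Igha against Acute-7d, against Acute-2d and against Effector, and 4.23, 4.02 and 4.22 for Jchain. Against Effector, Igha was 7.09 with a pseudocount of 0.1 and 5.88 with a term for the RESUB prefix, and Jchain was 7.00 with that term. With each library left out, Igha ran from 6.95 (without Acute-7d replicate 1) to 8.01 (without Acute-7d replicate 2), from 7.48 to 9.07 (without Acute-2d replicate 2 or 1), and from 6.80 to 7.07, and Jchain from 5.06 to 6.41, from 4.93 to 5.32 and from 5.30 to 6.0. Some differences that were not called, or not tested, changed sign. For Acute-7d against Acute-2d, Jchain ran from -1.28 to 0.07 and Ighg2b from -1.54 to 1.85, with Ighg2b at -0.14 with a pseudocount of 10. For Effector against Acute-2d, Ighg2b ran from -1.28 to 2.11, with -0.07 at a pseudocount of 10, and Igkc from -0.36 to 0.03. For Effector against Acute-7d, Jchain ran from -0.59 to 0.76, with -0.02 at equal 75th percentiles and -0.59 with the RESUB term, and Igkc from -0.01 to 0.28, with -0.01 with the RESUB term. In T_Dysf, Igkc against Acute-7d ran from -0.44 to 0.02, Ighg2b against Acute-2d from -0.85 to 2.54 and Cd79b against Effector from -0.14 to 0.58, and Sdc1 against Effector was 1.82 with the RESUB term. The counts of called genes moved more. Acute-7d against Acute-2d had 41, and 81 and 4 with pseudocounts of 0.1 and 10, 1 at a mean of at least 50, 147 in both groups alone, 168 with the RESUB term, and 61 to 376 with a library left out. Effector against Acute-2d had 2135, and 235, 350 and 553 to 2363 under the last 3. Effector against Acute-7d had 1958, and 155, 808 and 378 to 2156. T_Dysf against Effector had 2241, and 465, 386 and 585 to 2484. T_Dysf against Acute-7d had 1353, and 541 with the RESUB term and 422 (without T_Dysf replicate 1) to 1534, and T_Dysf against Acute-2d had 1787, and 656 (without T_Dysf replicate 1) to 1867. With replicate number as a block the count for T_Dysf against Acute-7d was 891. The labels state no pairing, and differences between replicates correlated between conditions across genes, which are not independent replicates, by -0.028 to 0.118 over all genes and by -0.199 to 0.197 over those with a mean of at least 50. Equal 75th percentiles shifted the median log2 difference by -0.15 and -0.13 for Effector against Acute-2d and Acute-7d and by -0.10 and -0.12 for T_Dysf against Acute-7d and Acute-2d, and the share of called genes that were higher went from 49.0% to 35.8% and from 51.9% to 40.7% for Effector, and from 45.6% to 36.9% and from 42.8% to 35.3% for T_Dysf. The cause was not tested. Where a condition keeps 1 library it is assumed to vary like the others. At 19382147 to 24856195 reads on genes, differences among conditions at a few reads, as for Ighg2b or for Igha outside T_Dysf, were not detectable.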
